A study of Mus musculus with 27 samples.

Results

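The comparison set 4 arrays labelled MF against 3 arrays labelled BM-DC, 7 of the 27 arrays of a study that placed embryonic-stem-cell-derived microglia beside primary mouse cells. The members were all arrays with these titles, and every gene measured on them was included. Both groups came from bone marrow of C57BL/6 mice, both carry an age of day 7 without saying from when it was counted, and no allele or drug is named for either. The letters were read as macrophages (MF) and bone marrow dendritic cells (BM-DC), a reading the labels do not spell out, and neither the growth factor nor the purity of the cells is given. The replicates are numbered, but nothing ties them to separate mice or cultures. The p-values thus reflect only the spread among arrays, which may be technical. For the test of each gene that spread was pooled over all 27 arrays, the other cell types included.

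Macrophages and dendritic cells are related myeloid cells. Macrophages depend on the receptor for CSF1, take up dying cells and debris, and recycle the lipid and iron these contain, whereas dendritic cells specialise in showing peptides on MHC class II to T cells together with costimulatory ligands. In culture, marrow is commonly turned into macrophages with CSF1 and into dendritic cells with GM-CSF, and marrow grown with GM-CSF is known to hold monocyte-derived macrophages and granulocytes beside dendritic cells. GM-CSF, IL-3 and related cytokines signal through JAK2 and STAT5, which switch on the feedback inhibitors CIS and SOCS2.

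RNA was measured on Illumina bead arrays with 45281 probes, and levels are log2 normalized intensities on which probes that were not detected had a median of 4.28 on each of the 7 arrays. A probe was detected where its detection p was below 0.05. Detected probes numbered 16202 ± 154 (SD, n = 4) in MF and 16194 ± 357 (SD, n = 3) in BM-DC, a gap that did not pass an exact two-sided permutation test (difference 7.92, p = 0.971, the smallest p that 35 splits allow being 0.0571). The raw median intensity was 80.1 to 95.4 on the MF arrays and 27.6 to 28.6 on the BM-DC arrays before normalization. All BM-DC arrays lay on 1 chip and the MF arrays on 3 others, so chip and group cannot be told apart in any result here. BM-DC 1 stood apart from the other BM-DC arrays, with a root mean square log2 difference over 12814 genes of 0.40 to BM-DC 2 and 0.36 to BM-DC 3, whose own difference was 0.22. Between groups the same measure was 0.91 to 1.03, and within MF it was 0.22 to 0.36. In bulk RNA of this kind, fewer cells of a type and less RNA per cell cannot be told apart.

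Macrophage markers were present in both groups, and several defining dendritic cell markers were not detected in BM-DC. Of 11 macrophage markers 9 had a probe named by its symbol, and all 9 were detected on every MF array and 8 on every BM-DC array. The ninth, C1qa, a chain of complement C1q, was at 5.12, 4.92, 5.33 and 5.22 on the MF arrays and 4.82, 4.44 and 4.59 on the BM-DC arrays and was detected on 1 BM-DC array. Its probe was dim in both groups, the lowest detected signal being 4.57 to 4.61 on these arrays. Of 13 dendritic cell markers, 6 were detected on all BM-DC arrays (Itgax, Ccr7, Irf4, Ccl17, H2-Ab1 and Cd74). Flt3, the receptor for the growth factor of conventional dendritic cells, Zbtb46, their transcription factor, Kmo, Dpp4 and Ccl22 were detected on no BM-DC array. Cd209a was detected on 1 BM-DC array and Fscn1 on 2. The probes of Ccl22 and Cd209a were detected on too few arrays of the whole series to be tested. For these genes, absent RNA cannot be told from a probe that does not respond. MF had 3 of the 13 detected on all arrays (Itgax, H2-Ab1 and Cd74) and 6 on none. The groups are therefore called MF and BM-DC throughout.

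Across 12814 genes, 1304 were called higher and 962 lower in MF, where a call needed a limma adjusted p under 0.05 and a log2 difference no smaller than 1 in size. These were 10.2% and 7.51% of the genes tested, or 17.7% in either direction, against which the counts of each gene group are given below. The median difference of all genes was 0.026 and the median standard error 0.155. A change of 8-fold or more was seen for 51 of the genes called higher and 176 of those called lower. Higher genes made up 57.5% of the calls. This split rested on the scaling, being 74.3% when arrays were scaled to a common median (2052 higher, 709 lower) and 36.1% when only probes detected on all 27 arrays set the scale (853 higher, 1508 lower), a setting that moved the median of all genes to -0.45.

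The genes with the largest rise in MF were led by Apoe, the lipid carrier apolipoprotein E. Apoe was at 10.76, 10.24, 10.88 and 10.54 on the MF arrays and 4.62, 4.66 and 4.36 on the BM-DC arrays (log2 difference 6.06, SE 0.27, limma adjusted p = 9.03e-16), where 2 of the 3 BM-DC arrays detected it barely above the lowest detected signal. Tfrc, the transferrin receptor through which cells take up iron, was at 12.74, 12.67, 12.52 and 12.25 on the MF arrays and 6.65, 6.91 and 6.37 on the BM-DC arrays (log2 difference 5.90, SE 0.15, limma adjusted p = 7.80e-21). Slc40a1, the iron exporter ferroportin, was at 13.34, 13.30, 13.22 and 13.31 on the MF arrays and 8.47, 7.88 and 7.96 on the BM-DC arrays (log2 difference 5.19, SE 0.60, limma adjusted p = 7.39e-08). Lack of overlap between the groups was a condition for entering this list and adds nothing to these differences. Genes of iron entry and of iron exit were both higher in MF. The other 12 genes of the 15 with the largest rise were Pcp4l1 (5.43), Cadm1 (5.18), Igfbp4 (5.03), Tmem273 (4.90), Cnrip1 (4.75), Gas6 (4.50), Mcm6 (4.26), Abcc3 (4.07), Selenop (4.06), Pcna (4.02), Cblb (3.99) and Slc9a9 (3.89), with log2 differences in brackets. Among them are an adhesion molecule (Cadm1), a binding protein for insulin-like growth factors (Igfbp4), a drug and bile salt exporter (Abcc3), a selenium carrier (Selenop), a ubiquitin ligase (Cblb) and an endosomal sodium-proton exchanger (Slc9a9). Single other probes of Tmem273 and Cblb did not pass, with differences of 0.84 and 0.69.

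The largest falls in MF, and so the highest relative levels in BM-DC, were in protease inhibitors, cytokine feedback genes and chemoattractant receptors. Cstdc4, of the stefin A family of cysteine protease inhibitors, was at 4.21, 4.33, 4.28 and 4.30 on the MF arrays and 12.11, 12.58 and 12.57 on the BM-DC arrays, at least 226-fold lower in MF (limma adjusted p = 1.14e-25). A fold is given as "at least" where no array of the lower group detected the probe. Serpinb2, the plasminogen activator inhibitor PAI-2, was at 4.18, 4.16, 4.21 and 4.46 on the MF arrays and 12.07, 12.16 and 11.83 on the BM-DC arrays, at least 172-fold lower in MF (limma adjusted p = 6.58e-27). Slpi, a secreted inhibitor of neutrophil elastase, was at 4.70, 5.04, 4.67 and 4.53 on the MF arrays and 11.68, 13.04 and 12.54 on the BM-DC arrays (log2 difference -7.68, SE 0.54, limma adjusted p = 8.92e-12). These genes lay at or near the undetected level in MF and far above it on every BM-DC array. Cish and Socs3 are described with their receptors below, and the other genes of the 15 were Upp1 (-7.57), Klk1b27 (-7.00), Spint1 (-6.84), Csta2 (at least 94.8-fold lower), Ltb4r1 (at least 84.0-fold lower), Ly6c1 (at least 74.3-fold lower), Flrt3 (at least 64.7-fold lower), Klk1b11 (-6.24), Klk1b1 (-6.23) and Fpr2 (-6.22). They encode uridine phosphorylase (Upp1), kallikreins (Klk1b27, Klk1b11, Klk1b1), a membrane serine protease inhibitor (Spint1), another stefin A (Csta2), the leukotriene B4 receptor (Ltb4r1), a surface antigen of the Ly6 family (Ly6c1), an adhesion protein (Flrt3) and a formyl peptide receptor (Fpr2). Kallikreins, stefins and Ly6 genes have near-identical copies, so which copy a probe read is uncertain.

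**Figure D1:**
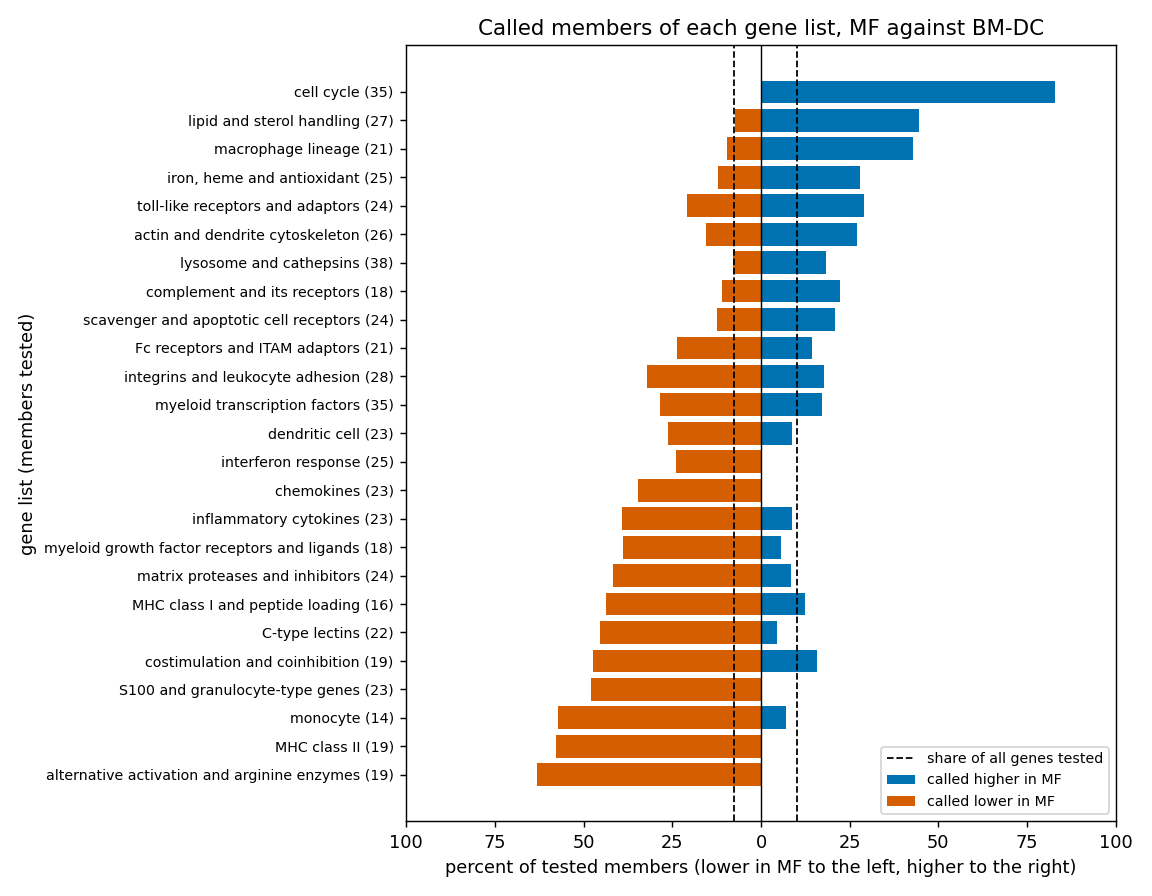
Percent of the tested members of 25 gene lists called higher (blue, to the right) or lower (orange, to the left) in MF than in BM-DC, with the number of members tested in brackets and dashed lines at the shares of all 12814 genes (10.2% higher, 7.51% lower). The cell cycle list stands farthest to the right with 29 of 35 members called higher, and the alternative activation list farthest to the left with 12 of 19 called lower. In the C-type lectin list a gene entered repeatedly counts each time.

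Genes that mark macrophages, where called, were higher in MF with 2 exceptions. Of 21 tested members of the macrophage lineage list, of 23 entries, 9 were called higher and 2 lower, with a median difference of 0.92 against 0.026 for all genes. Adgre1, which encodes F4/80, was at 12.65, 12.28, 12.77 and 12.84 on the MF arrays and 11.31, 10.99 and 11.12 on the BM-DC arrays (log2 difference 1.50, SE 0.52, limma adjusted p = 0.0207), and 1 of its other probes missed the size threshold at 0.94. Its call was lost without BM-DC 2 (limma adjusted p = 0.0651) and without BM-DC 3 (limma adjusted p = 0.0535). Mertk, a receptor for dying cells, was at 8.83, 8.90, 9.05 and 9.03 on the MF arrays and 7.67, 6.94 and 7.07 on the BM-DC arrays (log2 difference 1.73, SE 0.19, limma adjusted p = 3.76e-08). Csf1r, the CSF1 receptor, was at 11.11, 11.79, 12.05 and 11.73 on the MF arrays and 9.93, 10.13 and 10.18 on the BM-DC arrays (log2 difference 1.59, SE 0.40, limma adjusted p = 0.00193), but its other probe went the other way at -0.83 without a call, so the direction of Csf1r rests on the probe. The members called lower were Cd14, the lipopolysaccharide co-receptor, at 9.74, 9.82, 9.90 and 9.88 on the MF arrays and 11.92, 12.39 and 12.12 on the BM-DC arrays (log2 difference -2.31, SE 0.22, limma adjusted p = 2.19e-09), and Itgam, which encodes CD11b (log2 difference -1.82, SE 0.23, limma adjusted p = 3.56e-07). Glul, glutamine synthetase (1.34), C5ar1, the C5a receptor (1.04), and Aif1, the actin-binding protein IBA1 (1.97, other probes 0.84 and 1.70), were higher, while Lyz2, lysozyme, at -0.25, and Fcgr1, the high-affinity IgG receptor, at 0.92, were not called. The list had 12 members called higher under median scaling, 5 when probes detected on all arrays set the scale, 6 without background correction and 7 without BM-DC 1, with 2 lower in each case.

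C1qb, C1qc and Gas6 were higher in MF among genes of complement and of dying-cell uptake. C1qb was at 11.81, 12.61, 12.04 and 11.90 on the MF arrays and 9.47, 8.01 and 8.59 on the BM-DC arrays (log2 difference 3.40, SE 0.42, limma adjusted p = 1.93e-07). C1qc was at 11.16, 11.65, 11.83 and 11.69 on the MF arrays and 8.32, 7.24 and 7.85 on the BM-DC arrays (log2 difference 3.78, SE 0.41, limma adjusted p = 3.26e-08). C1qa, the other chain of C1q, whose levels are given above, was not called (0.53). Its probe lay near the lowest detected signal in both groups, far below those of C1qb and C1qc, so it could show little of a difference. BM-DC 1 was the highest of the BM-DC arrays for C1qb and C1qc, yet below every MF array. Of 18 complement genes tested 4 were called higher and 2 lower, the others called higher being C5ar1 and Calr, a chaperone that also binds C1q (2.82), and the lower ones Itgam and Cr1l, a regulator of complement C3 (-1.37), with 1 lower without background correction. Gas6, the ligand that bridges phosphatidylserine to the receptors Mertk, Axl and Tyro3, was at 12.08, 12.29, 12.57 and 12.31 on the MF arrays and 8.06, 7.77 and 7.60 on the BM-DC arrays (log2 difference 4.50, SE 0.24, limma adjusted p = 2.70e-14). Its receptors differed, since Mertk was higher in MF, Axl was lower (-1.01, other probe -0.18 and not called), and Tyro3 was at -0.40 without a call. Among 24 tested scavenger and apoptotic cell receptor genes 5 were called higher and 3 lower, or 1 lower under median scaling or without background correction. Cd36, a receptor for oxidised lipid, was at 6.62, 6.13, 6.99 and 7.86 on the MF arrays and 4.23, 4.28 and 4.26 on the BM-DC arrays (at least 4.93-fold higher in MF, limma adjusted p = 1.10e-10), and Itgb5, part of the vitronectin receptor, differed by 1.99. Msr1, scavenger receptor A (-1.17), and Cd300lf, an inhibitory receptor for lipids (-3.71), were lower, and Mrc1, the mannose receptor, was at 12.06, 12.05, 11.85 and 11.79 on the MF arrays and 12.46, 11.59 and 11.67 on the BM-DC arrays with no call.

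Lipid genes were higher in MF more often than lower. Of 27 tested members of the lipid and sterol list, of 35 entries, 12 were called higher and 2 lower, with a median of 0.89. Lipa, the acid lipase that frees cholesterol from esters in lysosomes, was at 13.71, 13.05, 13.82 and 13.76 on the MF arrays and 10.06, 9.60 and 9.96 on the BM-DC arrays (log2 difference 3.71, SE 0.28, limma adjusted p = 2.64e-11). Nr1h3, the sterol-sensing receptor LXR-alpha, was at 8.17, 7.99, 8.40 and 8.15 on the MF arrays and 5.92, 6.17 and 6.02 on the BM-DC arrays (log2 difference 2.14, SE 0.21, limma adjusted p = 6.67e-09), and its other probe was at 0.23 without a call. Enzymes of sterol synthesis were among the called genes, with Idi1 (2.19), Dhcr7 (1.93), Lss (1.80) and Cyp51 (1.10), although 1 other probe of Lss was at -0.09. The members called lower were Ch25h, which makes 25-hydroxycholesterol, at 4.29, 4.35, 4.37 and 4.31 on the MF arrays and 10.07, 9.08 and 9.16 on the BM-DC arrays (at least 28.6-fold lower in MF, limma adjusted p = 1.49e-18), and Srebf2, a regulator of sterol synthesis (-1.12, other probe 0.21 and not called). Without background correction 7 members were called higher and 1 lower, and without BM-DC 1 the counts were 15 and 1.

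The iron, heme and antioxidant list held calls in both directions. Of 25 tested 7 were called higher, among them Tfrc and Slc40a1, and 3 lower. Hmox1, the enzyme that opens the heme ring, was at 11.20, 11.30, 11.02 and 11.45 on the MF arrays and 9.13, 10.19 and 9.91 on the BM-DC arrays (log2 difference 1.50, SE 0.40, limma adjusted p = 0.00296). Slc48a1, a heme transporter (1.03), and Mt1, metallothionein (1.54), were also higher, while the ferritin genes Fth1 (-0.19) and Ftl1 (-0.08, another probe called lower at -1.31) were not called. Slc7a11, the cystine importer, was at 6.23, 5.91, 5.74 and 5.62 on the MF arrays and 9.80, 11.14 and 11.10 on the BM-DC arrays (log2 difference -4.81, SE 0.21, limma adjusted p = 6.44e-16), with 1 of its 4 other probes at 0.08. Nqo1, a quinone reductase (-2.57), and Sod2, mitochondrial superoxide dismutase (-1.23), were lower too. The balance of the list depended on the scaling, with 11 higher and 3 lower after median scaling and 4 higher and 5 lower when probes detected on all arrays set the scale.

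**Figure D2:**
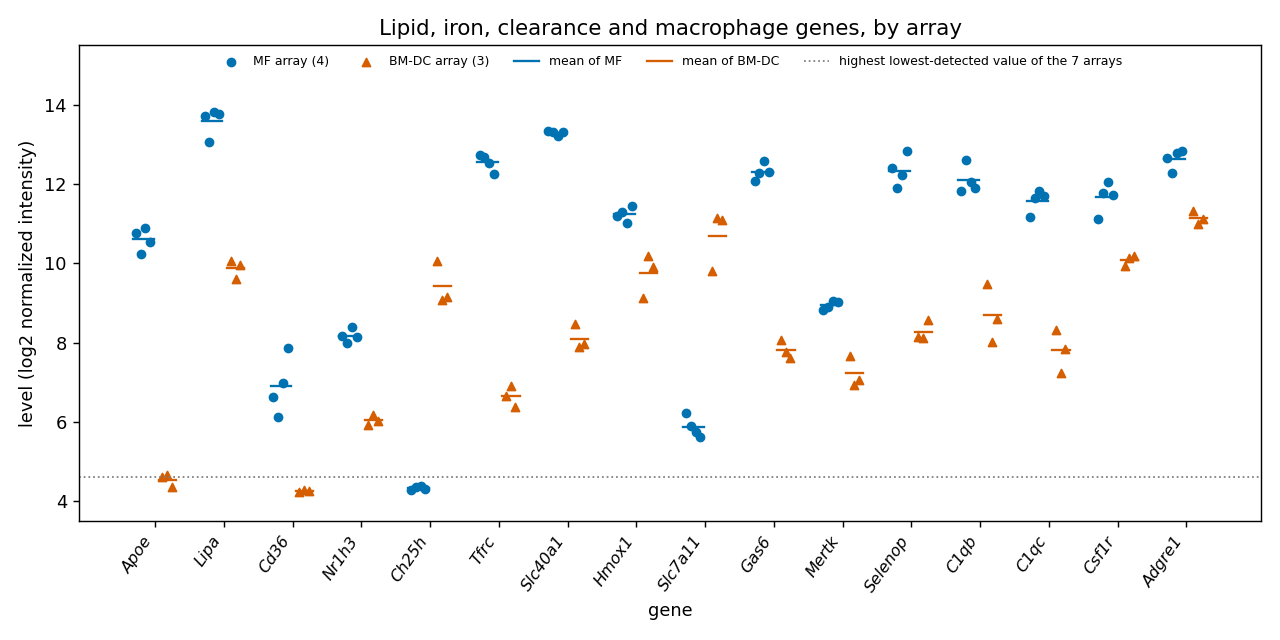
Log2 normalized intensity of 16 lipid, iron, clearance and macrophage genes on each of the 4 MF arrays (blue circles) and 3 BM-DC arrays (orange triangles), with short lines at the group means and a dotted line at 4.61, the highest of the 7 arrays' lowest detected values. The group means of Apoe, Tfrc, Slc40a1, Gas6 and Selenop lie over 4 log2 units apart with MF higher, and those of Ch25h and Slc7a11 with MF lower.

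Lysosomal genes had high levels in both groups and a balance that changed with the scaling. Of 38 tested 7 were called higher and 3 lower, against 11 and 0 after median scaling and 4 and 6 when probes detected on all arrays set the scale. The genes called higher were Lipa, Ctse (2.13), Atp6v1a (1.97), Tpp1 (1.49), Npc2 (1.08), Gusb (1.05) and Hexa (1.02), of which Atp6v1a encodes a subunit of the proton pump and Npc2 a cholesterol carrier. Other probes of Ctse and Gusb were not called. Those called lower were Ctsc (-1.24), the activator of granule serine proteases, Ctsk (-1.27) and Ctsa (-1.07). Probes of Ctsa disagreed, the other 4 giving 3.12, 0.18, -1.63 and 0.75. The core of the CLEAR element, TCACGTGA, to which the lysosomal regulator TFEB binds, lay in the promoter windows of 6 of 32 listed genes (6 of 37 windows, 16.2%) and in 0.974% of 32851 promoter windows of the mouse, each of 300 bases. Tfeb itself was at 4.76, 4.67, 4.51 and 4.53 on the MF arrays and 4.61, 4.48 and 4.39 on the BM-DC arrays and was not called (log2 difference 0.12, SE 0.10, limma adjusted p = 0.398).

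Genes of the cell cycle were higher in MF as a group. Of 35 tested, of 40 entries, 29 were called higher and none lower, with a median difference of 1.97. The arrays of the groups did not overlap for 30 of the 35, against 48.1% of all genes tested. Pcna, the sliding clamp of DNA replication, was at 10.24, 9.14, 9.77 and 10.37 on the MF arrays and 5.83, 5.74 and 6.00 on the BM-DC arrays (log2 difference 4.02, SE 0.37, limma adjusted p = 1.34e-09). Mcm6, a subunit of the replicative helicase, was at 11.05, 10.95, 11.20 and 11.28 on the MF arrays and 8.05, 6.31 and 6.22 on the BM-DC arrays (log2 difference 4.26, SE 0.32, limma adjusted p = 3.03e-11). Tk1, thymidine kinase, was at 8.89, 9.53, 9.22 and 8.94 on the MF arrays and 6.45, 4.39 and 4.97 on the BM-DC arrays (log2 difference 3.87, SE 0.36, limma adjusted p = 2.35e-09). BM-DC 1 was the highest of the BM-DC arrays for Mcm6 and Tk1 and BM-DC 3 for Pcna, and no BM-DC array reached the MF range. The helicase genes Mcm2, Mcm3, Mcm4, Mcm5 and Mcm7 rose by 1.43 to 3.39, and among mitotic genes Plk1 rose by 2.85, Top2a by 2.34 and Tpx2 by 2.43. Those not called were Ccna2 (0.65), Tyms (0.73), Cenpa (0.54), Ube2c (0.48), Ccne1 (0.24) and Cenpf (0.09).

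The BM-DC arrays differed among themselves in these genes. The median level of the list was 8.34 to 8.49 on the MF arrays, 7.16 on BM-DC 1, 5.35 on BM-DC 2 and 5.76 on BM-DC 3. BM-DC 1 was the highest of the 3 for 34 of the 35 genes, or 97.1%, against 38.5% of all genes. Birc5, survivin, was at 9.14, 8.69, 8.71 and 8.94 on the MF arrays and 8.83, 5.69 and 6.96 on the BM-DC arrays, so that BM-DC 1 lay within the MF range and the other 2 far below. Without BM-DC 1 the list had 30 members called higher, none lower and a median of 2.53. The list kept 30 and 27 members called higher, with none lower, under median scaling and under scaling to probes detected on all arrays. Among regulators of the cycle, Cdkn1c, the inhibitor p57, was at 10.46, 10.66, 10.09 and 10.20 on the MF arrays and 6.30, 7.63 and 7.15 on the BM-DC arrays (log2 difference 3.32, SE 0.24, limma adjusted p = 1.51e-11), and Ccnd1, cyclin D1, was higher by 1.76 with 1 of 2 other probes not called. Cdkn1a, the inhibitor p21 (-1.47), Ccnd3, cyclin D3 (-1.94), and Fas, a death receptor (-3.33, 1 of 3 other probes not called), were lower, in a list of 22 tested with 3 called higher and 7 lower.

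**Figure D3:**
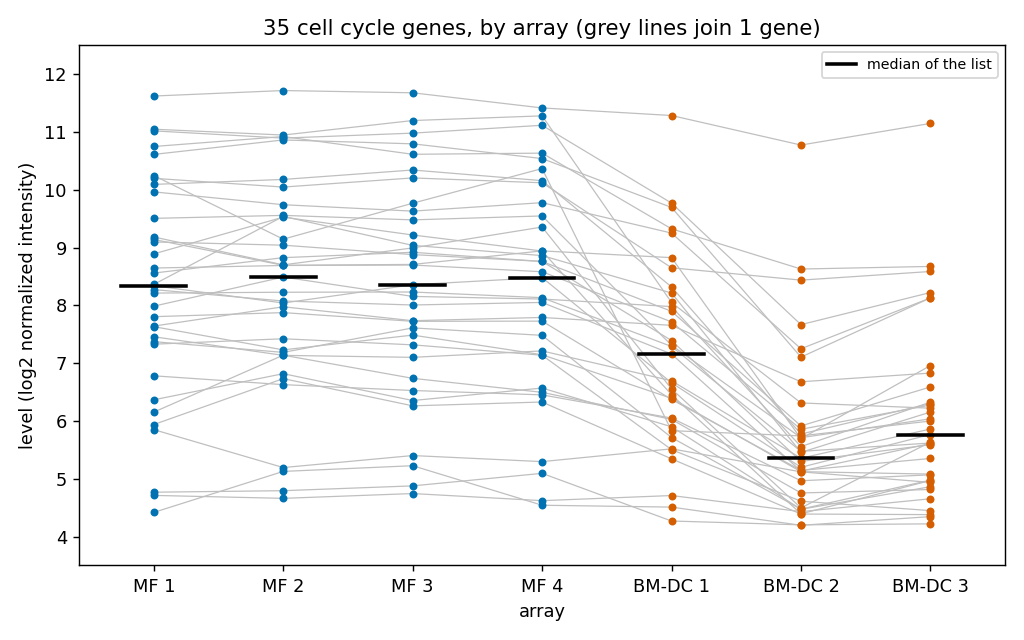
Log2 normalized intensity of the 35 tested cell cycle genes on each array, 1 point per gene, with grey lines joining the points of a gene and black bars at the median of each array. The medians are 8.34 to 8.49 on the MF arrays, 7.16 on BM-DC 1, 5.35 on BM-DC 2 and 5.76 on BM-DC 3.

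MHC class II genes were lower in MF. Of 19 tested members of the class II list, of 20 entries, none was called higher and 11 lower, with a median of -1.42, against 7.51% of all genes called lower. The peptidase gene Ctss, cathepsin S, was at 0.99 and was called higher under median scaling, or when MF 1, MF 2, BM-DC 2 or BM-DC 3 was left out. Cd74, the invariant chain that escorts class II, was at 10.03, 10.51, 10.17 and 10.09 on the MF arrays and 13.06, 13.19 and 13.14 on the BM-DC arrays (log2 difference -2.93, SE 0.40, limma adjusted p = 1.05e-06), a 7.63-fold difference. H2-Ab1, the beta chain of I-A, was at 9.83, 10.12, 9.59 and 9.86 on the MF arrays and 12.13, 12.72 and 12.55 on the BM-DC arrays (log2 difference -2.62, SE 0.35, limma adjusted p = 7.28e-07), a 6.13-fold difference. Both genes were thus well detected in MF and higher on every BM-DC array. H2-Eb1, the beta chain of I-E, differed by -3.02. H2-Aa, the alpha chain of I-A, differed by -1.42, a call lost without BM-DC 2 (limma adjusted p = 0.0501) or BM-DC 3 (limma adjusted p = 0.0532).

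The peptide-editing chaperones of class II moved with it. H2-DMa, which removes the invariant chain fragment, was at 7.83, 8.19, 7.81 and 7.94 on the MF arrays and 11.79, 11.62 and 11.55 on the BM-DC arrays (log2 difference -3.71, SE 0.26, limma adjusted p = 9.95e-12), and its partners H2-DMb1 and H2-DMb2 differed by -2.38 and -3.48. H2-Oa and H2-Ob, which form the inhibitor of H2-DM, were detected on no MF array. H2-Oa was at 4.43, 4.25, 4.28 and 4.35 on the MF arrays and 6.54, 6.99 and 6.94 on the BM-DC arrays, at least 4.68-fold lower in MF, and H2-Ob was at least 5.64-fold lower. Marchf1, a ubiquitin ligase that removes class II from the surface (-1.67, other probe -0.12 and not called), and Ifi30, a lysosomal thiol reductase (-1.32), were lower as well. Ciita, the coactivator of class II promoters, was at 5.05, 4.88, 4.76 and 4.50 on the MF arrays and 6.30, 5.15 and 5.64 on the BM-DC arrays and missed the size threshold (log2 difference -0.90, SE 0.17, limma adjusted p = 8.04e-05). Of the promoter-bound complexes, the genes of the 3 subunits of NF-Y and of 2 subunits of RFX were tested, and none was called, with differences from -0.66 to 0.27. Probes of paralogous H2 genes may read each other's RNA.

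The promoters of these genes are shown because 9 of the 11 called members encode class II chains, their chaperones or Cd74. Such genes share promoter boxes, and the coactivator CIITA acts on them through the complexes bound there. The sequences are RefSeq promoter windows on GRCm38.p6, in which an X box core (AGCAAC) and a Y box core (GATTGG) were searched on both strands, and the capitals mark the cores found on the strand of the gene.
H2-Aa, chr17:34287843-34287932, minus strand: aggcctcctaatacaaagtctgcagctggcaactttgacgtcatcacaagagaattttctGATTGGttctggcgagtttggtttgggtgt
H2-Eb1, chr17:34305747-34305836, plus strand: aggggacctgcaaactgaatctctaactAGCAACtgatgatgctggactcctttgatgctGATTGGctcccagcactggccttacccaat
H2-Oa, chr17:34092275-34092364, plus strand: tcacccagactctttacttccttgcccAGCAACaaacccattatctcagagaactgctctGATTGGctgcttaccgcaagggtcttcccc
H2-Ob, chr17:34238787-34238876, plus strand: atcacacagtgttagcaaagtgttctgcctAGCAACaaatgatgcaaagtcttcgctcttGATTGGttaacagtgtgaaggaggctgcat
H2-DMb1, chr17:34153069-34153158, plus strand: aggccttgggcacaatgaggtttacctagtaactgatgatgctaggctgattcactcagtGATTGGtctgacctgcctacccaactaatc
H2-DMb2, chr17:34145098-34145187, plus strand: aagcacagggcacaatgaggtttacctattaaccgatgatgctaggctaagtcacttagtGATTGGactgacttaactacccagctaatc
The Y box core lay in a window of all 8 H2 genes of the list that had one, and in 16.1% of all 32851 windows. The X box core lay in windows of 4 of the 8, and in 14.8% of all windows. Only the exact letters were searched, so a window without a match may still hold a variant of the box. In H2-Eb1, H2-Oa and H2-Ob the X box core preceded the Y box core by 32, 33 and 30 bases. An X box core followed by a Y box core within 40 bases on the strand of the gene occurred in 31 windows, or 0.0944%. A match of letters is a description and shows no binding.

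Class I genes shared the direction of class II in part. Of 16 tested 7 were called lower and 2 higher, or 5 and 1 without background correction. Psmb8, a subunit of the immunoproteasome, was at 6.26, 7.33, 7.25 and 7.18 on the MF arrays and 10.68, 10.68 and 10.80 on the BM-DC arrays (log2 difference -3.71, SE 0.37, limma adjusted p = 5.39e-09). The peptide transporter genes Tap2 (-1.83) and Tap1 (-1.12) and the loading factor Tapbp (-1.38) were lower, as were the class I-like genes H2-M3 (-1.65), H2-T23 (-1.54) and H2-Q7 (-1.94), of which H2-T23 and H2-Q7 each had another probe without a call. The classical chains H2-K1 (-0.57) and H2-D1 (-0.75) and B2m (-0.38) were not called, though other probes of H2-K1 gave -0.23 and -1.93, the latter called lower. Calr was higher, and so was Erap1, a peptide-trimming peptidase (1.16, other probe not called).

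The costimulatory ligand genes Cd80 and Cd86 were lower in MF. Of 19 tested genes for costimulation and coinhibition 9 were called lower and 3 higher, or 6 lower and 1 higher without background correction. Cd80, a ligand of CD28, was at 5.26, 5.88, 5.41 and 5.68 on the MF arrays and 9.87, 10.32 and 10.53 on the BM-DC arrays (log2 difference -4.69, SE 0.15, limma adjusted p = 8.52e-19), and its other probe was at -0.34 without a call. Cd86, the second ligand of CD28, was at 6.71, 6.68, 6.86 and 6.88 on the MF arrays and 9.56, 10.51 and 10.30 on the BM-DC arrays (log2 difference -3.34, SE 0.27, limma adjusted p = 1.06e-10), 10.1-fold lower. Tnfrsf9, the receptor 4-1BB, was at 4.34, 4.60, 4.64 and 4.30 on the MF arrays and 7.61, 10.44 and 9.92 on the BM-DC arrays (log2 difference -4.85, SE 0.36, limma adjusted p = 3.35e-11). Inhibitory ligands were lower as well, with Cd274 (-1.57), which encodes PD-L1, Pdcd1lg2 (at least 2.39-fold lower), which encodes PD-L2, and Cd276 (-2.72). Cd40, the receptor for T cell help, differed by -1.36, with other probes at 0.01, -1.29 and -0.25. The genes called higher were Cd200, an inhibitory ligand (at least 2.83-fold higher, other probes -0.22 and 0.11), Sirpa, the receptor for CD47 (1.31, other probe -0.21), and Vsir, a coinhibitory receptor (1.06).

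**Figure D4:**
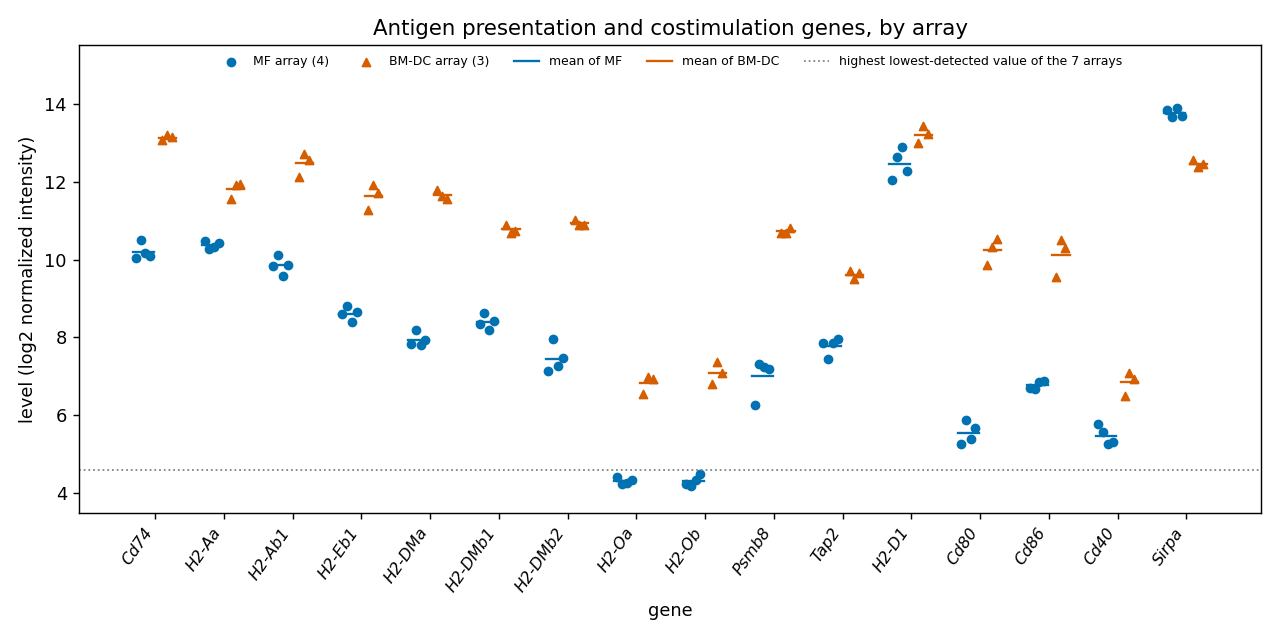
Log2 normalized intensity of 16 antigen presentation and costimulation genes on each of the 4 MF arrays (blue circles) and 3 BM-DC arrays (orange triangles), with short lines at group means and a dotted line at 4.61, the highest of the 7 arrays' lowest detected values. H2-Oa and H2-Ob lie below that line on all MF arrays, and every gene but Sirpa has its lowest BM-DC array above its highest MF array.

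Feedback inhibitors of cytokine receptors were lower in MF by more than the receptor genes named beside them. Cish, which encodes the cytokine-induced inhibitor CIS, was at 4.20, 4.70, 4.41 and 4.46 on the MF arrays and 12.39, 12.28 and 12.12 on the BM-DC arrays (log2 difference -7.82, SE 0.25, limma adjusted p = 8.06e-19), and 1 of the 4 MF arrays detected it. Socs2 was at 4.65, 4.24, 4.55 and 4.47 on the MF arrays and 9.21, 9.45 and 9.53 on the BM-DC arrays (log2 difference -4.92, SE 0.19, limma adjusted p = 3.70e-17). Socs3, the inhibitor of receptors that share gp130 and of the G-CSF receptor, was at 4.48, 4.89, 4.75 and 4.70 on the MF arrays and 11.05, 11.60 and 11.81 on the BM-DC arrays (log2 difference -6.78, SE 0.21, limma adjusted p = 6.35e-19). Every MF array lay near the undetected level and every BM-DC array far above it for the 3 genes. Csf2rb, the beta chain shared by the receptors for GM-CSF, IL-3 and IL-5, was at 5.38, 5.56, 5.98 and 5.52 on the MF arrays and 9.07, 8.75 and 9.31 on the BM-DC arrays (log2 difference -3.43, SE 0.16, limma adjusted p = 3.03e-15), whereas Csf2ra, the alpha chain of the GM-CSF receptor, was at 10.10, 9.62, 10.18 and 9.87 on the MF arrays and 10.02, 10.33 and 10.07 on the BM-DC arrays and was not called (-0.20). Il3ra, the alpha chain of the IL-3 receptor (-1.10), Csf1, the ligand of Csf1r (-2.14), and Kit (-1.69, other probe -0.64 and not called) were lower too. Of the 18 tested members of this list 7 were called lower and 1, Csf1r, higher.

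The promoter stretches of Cish and Socs3 are shown for the letters TTCNNNGAA, the core read by STAT factors, a motif and genes chosen after the values were seen.
Cish, chr9:107296579-107296683, plus strand: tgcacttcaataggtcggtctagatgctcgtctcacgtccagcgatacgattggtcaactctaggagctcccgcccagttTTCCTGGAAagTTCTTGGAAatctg
Socs3, chr11:117969467-117969556, minus strand: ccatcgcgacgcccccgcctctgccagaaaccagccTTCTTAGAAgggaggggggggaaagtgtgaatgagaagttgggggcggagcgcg
Capitals mark the matches, 2 in the window of Cish and 1 in that of Socs3, and these letters lie in 8.3% of all windows. The first Cish match begins at the annotated start of the gene and the other 11 bases after it, and the Socs3 match lies 154 bases before it.

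Cytokine genes were lower in MF where called, with Pdgfb and Igf1 of the opposite sign. Of 23 tested 9 were called lower and 2 higher. Il1b, interleukin-1 beta, was at 4.25, 4.41, 4.58 and 4.34 on the MF arrays and 11.41, 9.07 and 9.42 on the BM-DC arrays (at least 41.4-fold lower in MF, limma adjusted p = 1.04e-11). Il1r2, the decoy receptor for interleukin-1, was at 4.34, 4.53, 4.46 and 4.34 on the MF arrays and 10.48, 10.50 and 10.54 on the BM-DC arrays (at least 60.2-fold lower in MF, limma adjusted p = 3.37e-19). Genes for the cytokine and for its decoy were thus both lower in MF, as were Il1a (-3.10) and the antagonist Il1rn (-1.79, other probes -4.37 and -0.79). Osm, oncostatin M (-3.17), Tnf (-1.54), Vegfa (-1.95) and Tgfb1 (-1.25) were lower, while Il6 (-0.56), Il10 (0.40) and Il23a (-0.20) were not called. The genes called higher were Pdgfb, a subunit of platelet-derived growth factor, at 7.56, 8.33, 7.92 and 7.57 on the MF arrays and 5.73, 5.38 and 5.55 on the BM-DC arrays (log2 difference 2.29, SE 0.15, limma adjusted p = 4.49e-12), and Igf1, insulin-like growth factor 1, at 11.69, 11.43, 11.28 and 11.51 on the MF arrays and 9.32, 9.58 and 9.47 on the BM-DC arrays (log2 difference 2.02, SE 0.17, limma adjusted p = 4.90e-10).

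Genes of the TGF-beta family and its pathway showed both directions. Inhba, the subunit of activin A, was at 4.29, 4.34, 4.40 and 4.35 on the MF arrays and 9.92, 10.34 and 10.79 on the BM-DC arrays (at least 53.9-fold lower in MF, limma adjusted p = 6.92e-21). Tgfbi, a matrix protein induced by TGF-beta, had a mean level of 8.67 ± 0.14 (SD, n = 4) in MF and 12.78 ± 0.20 (SD, n = 3) in BM-DC (log2 difference -4.11, SE 0.28, limma adjusted p = 4.09e-12). Smad3, a transducer of activin and TGF-beta, went the other way at 7.57, 7.43, 7.07 and 7.18 on the MF arrays and 4.34, 4.24 and 4.24 on the BM-DC arrays (at least 6.58-fold higher in MF, limma adjusted p = 1.80e-13), with another probe at 0.77 and not called. Tgfbr1, a receptor of the family (1.52, other probes 0.55 and 2.26), and Ltbp3, which stores latent TGF-beta (2.43), were higher. Of the 21 genes tested 3 were called higher and 6 lower, a balance that turned to 6 higher and 4 lower under median scaling and was 2 and 3 without background correction.

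Chemokine genes that passed the test were lower in MF. Of 23 tested 8 were called lower and none higher, against 4 lower without background correction. Cxcl2, an attractant of neutrophils, was at 5.13, 5.07, 5.22 and 5.05 on the MF arrays and 11.17, 10.45 and 10.48 on the BM-DC arrays (log2 difference -5.58, SE 0.25, limma adjusted p = 8.93e-16). Ccl17, an attractant of T cells made by dendritic cells, was at 4.72, 4.47, 4.25 and 4.20 on the MF arrays and 8.23, 7.82 and 7.81 on the BM-DC arrays (log2 difference -3.54, SE 0.12, limma adjusted p = 1.76e-18). Ccl6 (-3.79), Cxcl1 (-2.94), Ccl8 (at least 3.56-fold lower) and Ccl5 (-1.76) were lower as well, and Ccl2 (-0.51), Ccl3 (0.13) and Ccl4 (0.62) were not called. Without BM-DC 1 the counts were 8 lower and 2 higher, the latter being Ccl4 and Ccl7. Ccl12, a ligand of CCR2 whose other probe was called lower, was at 8.01, 7.57, 7.68 and 7.97 on the MF arrays and 9.62, 6.70 and 7.02 on the BM-DC arrays, so that BM-DC 1 lay above and the other 2 below every MF array.

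Receptors for chemoattractants showed both directions. Of 17 tested 4 were called higher and 3 lower, with 1 higher without background correction or with the series matrix values and 2 higher when probes detected on all arrays set the scale. Ltb4r1 was at 4.42, 4.32, 4.48 and 4.26 on the MF arrays and 11.39, 10.77 and 10.80 on the BM-DC arrays, at least 84.0-fold lower in MF. Fpr2 was at 4.40, 4.78, 4.45 and 4.63 on the MF arrays and 10.49, 11.15 and 10.71 on the BM-DC arrays (log2 difference -6.22, SE 0.26, limma adjusted p = 3.21e-16). P2ry6, a receptor for uridine diphosphate that promotes phagocytosis, was at 11.42, 11.46, 11.40 and 11.48 on the MF arrays and 9.89, 8.39 and 8.61 on the BM-DC arrays (log2 difference 2.48, SE 0.22, limma adjusted p = 7.32e-10), while P2ry14, a receptor for UDP-glucose, was lower (-2.38). Cxcr3 (at least 3.04-fold higher) and Ccr3 (at least 1.92-fold higher) were higher, and Ccr7, which guides dendritic cells to lymph nodes, was at 4.53, 4.72, 4.51 and 4.68 on the MF arrays and 5.33, 5.61 and 5.81 on the BM-DC arrays and missed the size threshold (log2 difference -0.97, SE 0.21, limma adjusted p = 3.25e-04). In the list of purinergic genes, 16 tested, 2 were called higher and 5 lower, among them the ectoenzymes Entpd1 (1.09), higher, and Nt5e, which encodes CD73 (at least 3.05-fold lower, other probe -0.68 and not called), lower. That list had 1 called each way without background correction or with the series matrix values, and 3 each way under median scaling. Alox5, the enzyme that starts leukotriene synthesis, was at 4.23, 4.31, 4.45 and 4.28 on the MF arrays and 9.01, 8.35 and 8.31 on the BM-DC arrays (at least 15.6-fold lower in MF, limma adjusted p = 4.76e-20), whereas Alox5ap, which presents the substrate to it, was at -0.78 and not called, though its other probe was called lower at -1.18. Hpgds, a prostaglandin D synthase, was higher (2.72), in an eicosanoid list of 16 tested with 3 called each way, or 2 higher and 6 lower when probes detected on all arrays set the scale.

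C-type lectin receptors were mostly lower in MF where called. Of 22 tested entries, of 28, 10 were called lower and 1 higher. A gene entered repeatedly counts each time, and the different genes called lower were 9. Without background correction 6 different genes were called lower and none higher. Clec4e, which encodes Mincle, a receptor for mycobacterial cord factor, was at 5.67, 5.64, 5.70 and 5.57 on the MF arrays and 10.65, 11.24 and 10.87 on the BM-DC arrays (log2 difference -5.28, SE 0.22, limma adjusted p = 2.09e-16). Clec4n, Dectin-2, a receptor for fungal mannan, was at 9.05, 8.74, 8.86 and 8.58 on the MF arrays and 13.69, 13.75 and 13.60 on the BM-DC arrays (log2 difference -4.87, SE 0.29, limma adjusted p = 3.62e-13). Mgl2, a galactose lectin used as a marker of a dendritic cell subset, was at 5.55, 6.08, 5.94 and 5.58 on the MF arrays and 11.67, 11.56 and 11.60 on the BM-DC arrays (log2 difference -5.82, SE 0.12, limma adjusted p = 4.26e-23), and its relative Clec10a differed by -2.63. Clec7a, Dectin-1, was at -0.36 and not called, though its other probe was called lower at -1.61. The list member called higher was Siglec1, sialoadhesin (1.13), which is a lectin of the immunoglobulin superfamily and not a C-type lectin.

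Toll-like receptors divided by member. Of 24 genes of receptors and adaptors tested 7 were called higher and 5 lower. Tlr2, the receptor for bacterial lipopeptides, was at 7.54, 7.99, 7.98 and 7.69 on the MF arrays and 12.22, 12.33 and 12.25 on the BM-DC arrays (log2 difference -4.47, SE 0.17, limma adjusted p = 3.27e-17). Its partners moved apart, with Tlr6 lower (-1.48, other probe -0.86 and not called) and Tlr1 higher (1.93). The endosomal receptors Tlr8 (2.04), Tlr13 (1.52) and Tlr7 (1.01), sensors of RNA, were higher. Cd180, a relative of Tlr4 (2.12), and its partner Ly86 (1.36) were higher too, and Tlr4 was at -0.52 without a call, with other probes at -1.03 and -1.23. Without background correction 4 were called higher.

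Of 21 tested Fc receptor and related adaptor genes 3 were called higher and 5 lower, or 3 lower without background correction. Trem1, an amplifier of inflammation, was at 4.33, 4.19, 4.32 and 4.37 on the MF arrays and 8.73, 9.55 and 9.38 on the BM-DC arrays (at least 24.7-fold lower in MF, limma adjusted p = 6.03e-21). Trem2, a lipid-sensing receptor of macrophages and microglia, was at 12.64, 12.57, 12.74 and 12.75 on the MF arrays and 10.95, 10.92 and 10.91 on the BM-DC arrays (log2 difference 1.74, SE 0.11, limma adjusted p = 2.59e-12). Fcgr2b, the inhibitory receptor for IgG, was lower (-3.09, 1 of 4 other probes not called) and Fcgr4, an activating one, higher (1.76). Blnk, an adaptor best known in B cells, was at 7.69, 8.40, 8.50 and 8.43 on the MF arrays and 4.56, 5.62 and 5.20 on the BM-DC arrays (log2 difference 3.12, SE 0.21, limma adjusted p = 5.48e-12), and Tyrobp, which encodes DAP12, the adaptor of Trem1 and Trem2, was at 0.37 and not called.

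Genes of arginine metabolism and of the alternatively activated state were lower in MF. Of 19 tested, of 24 entries, 12 were called lower and none higher, with a median of -2.07. Acod1, which makes itaconate, was at 5.15, 4.49, 5.20 and 4.83 on the MF arrays and 9.79, 10.03 and 10.06 on the BM-DC arrays (log2 difference -5.04, SE 0.27, limma adjusted p = 4.55e-14). Ass1, argininosuccinate synthase, was at 4.88, 5.70, 5.38 and 5.38 on the MF arrays and 10.10, 10.18 and 9.95 on the BM-DC arrays (log2 difference -4.75, SE 0.23, limma adjusted p = 3.43e-15). Arg2, mitochondrial arginase, was at 4.30, 4.30, 4.22 and 4.23 on the MF arrays and 7.80, 8.50 and 8.15 on the BM-DC arrays (at least 11.7-fold lower in MF, limma adjusted p = 6.12e-16). Arg1, the arginase usually taken as the marker of the state, was at 4.44, 4.21, 4.34 and 4.32 on the MF arrays and 4.66, 4.80 and 4.76 on the BM-DC arrays and was not called (-0.41), though another of its probes was called lower, and Nos2, the inducible nitric oxide synthase, was at -0.23. Acod1 and Ass1 belong to inflammatory activation and arginine supply, and Ccl17, Mgl2, Chil3 (-3.09), a chitinase-like protein, and Il4i1, an amino acid oxidase (-2.07), to the response to interleukin-4. Il4ra, the receptor of that cytokine, was lower as well (-1.17). Without MF 1 and under median scaling 1 member, the hemoglobin scavenger receptor Cd163, was called higher, at 0.89 here.

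**Figure D5:**
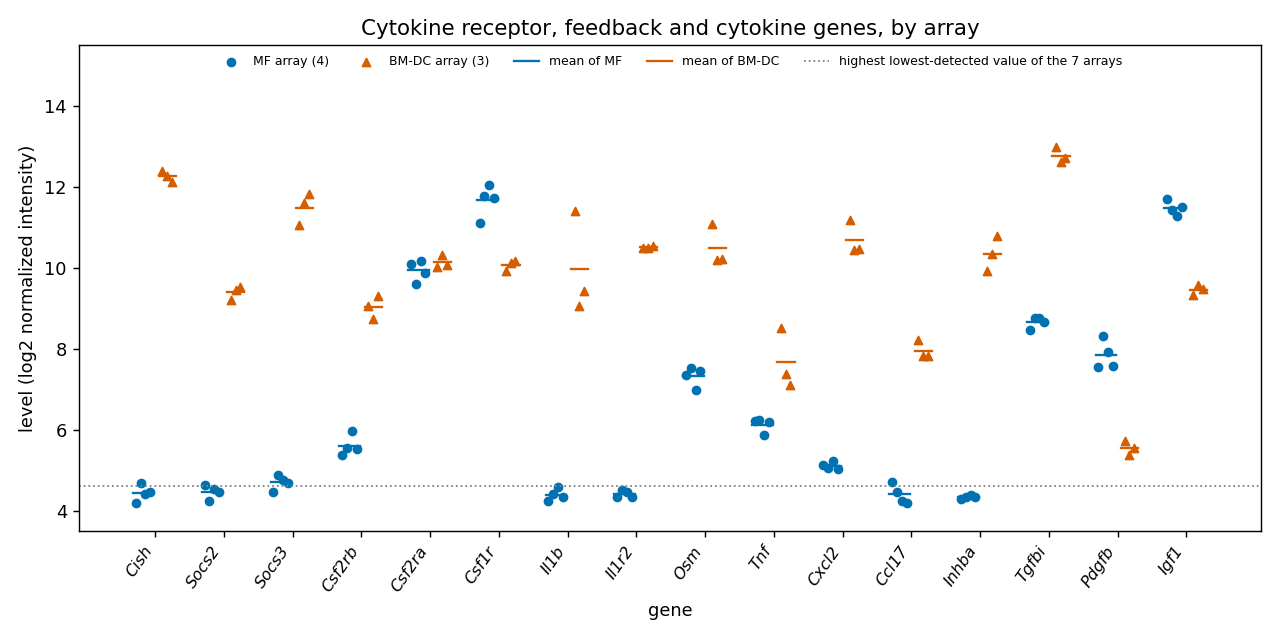
Log2 normalized intensity of 16 cytokine, receptor and feedback genes on each of the 4 MF arrays (blue circles) and 3 BM-DC arrays (orange triangles), with short lines at group means and a dotted line at 4.61, the highest of the 7 arrays' lowest detected values. Cish, Socs3, Il1b, Il1r2 and Inhba lie near the undetected level in MF and have group means at least 5 log2 units higher in BM-DC, while Csf2ra overlaps between the groups.

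Of 24 tested genes of proteases and their inhibitors 10 were called lower in MF and 2 higher. Thbs1, thrombospondin 1, was at 4.20, 4.32, 4.67 and 4.28 on the MF arrays and 9.33, 10.02 and 10.05 on the BM-DC arrays (log2 difference -5.43, SE 0.20, limma adjusted p = 1.80e-17). Mmp14, a membrane collagenase (-3.82), Mmp8, the neutrophil collagenase (-3.04), Plaur, the urokinase receptor (-2.99), and Plau, urokinase (-1.94), were lower, and Timp1 (-2.07) and Timp2 (1.82) went opposite ways. Serpinb6b, a granzyme inhibitor, was higher (2.90). Mmp9, a gelatinase, was at 0.35 and not called.

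Adhesion genes differed in both directions. Of 28 tested 5 were called higher and 9 lower, or 3 and 6 without background correction. Jaml, a junctional adhesion receptor of leukocytes, was at 4.47, 4.39, 4.66 and 4.42 on the MF arrays and 10.55, 10.65 and 10.64 on the BM-DC arrays (log2 difference -6.13, SE 0.13, limma adjusted p = 6.77e-23). Cdh1, E-cadherin, was lower (at least 9.65-fold lower, other probe 0.10 and not called), as were Itga1 (at least 12.8-fold lower, other probe -0.62 and not called) and Icam1 (-1.81). Vcam1, the ligand of VLA-4, was at 7.60, 6.91, 7.18 and 7.27 on the MF arrays and 4.46, 4.95 and 4.47 on the BM-DC arrays (log2 difference 2.61, SE 0.57, limma adjusted p = 4.81e-04), and Itga6 was higher (at least 4.29-fold higher, other probes 0.20 and 0.23). Itgax, which encodes CD11c, was at 6.37, 6.22, 6.44 and 6.51 on the MF arrays and 7.05, 7.48 and 7.36 on the BM-DC arrays, higher on every BM-DC array by an amount below the size threshold (log2 difference -0.91, SE 0.12, limma adjusted p = 6.77e-07). In the actin and cytoskeleton list 7 of 26 were called higher and 4 lower, or 11 and 2 after median scaling, with Was, an activator of actin branching (1.59), Tpm1 (1.71) and Tubb6 (1.50) higher and Gsn, gelsolin (-1.73), lower.

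Transcription factors of macrophages, monocytes and dendritic cells were found on both sides. Of 35 tested, of 42 entries, 6 were called higher and 10 lower. Irf4, needed by type 2 conventional dendritic cells, was at 4.76, 4.94, 4.61 and 4.48 on the MF arrays and 8.07, 7.35 and 7.31 on the BM-DC arrays (log2 difference -2.88, SE 0.27, limma adjusted p = 1.97e-09). Irf8, needed by type 1 conventional dendritic cells and by monocytes, was at 9.52, 9.05, 9.54 and 9.50 on the MF arrays and 7.86, 7.51 and 7.77 on the BM-DC arrays (log2 difference 1.69, SE 0.27, limma adjusted p = 1.16e-05), higher in MF. Klf4, a factor of monocyte differentiation, was at 5.27, 5.65, 5.26 and 5.10 on the MF arrays and 10.07, 9.07 and 8.88 on the BM-DC arrays (log2 difference -4.02, SE 0.39, limma adjusted p = 3.62e-09). Batf (-2.56), Cebpb (-1.96), Relb (-1.77), Bhlhe40 (-1.81) and Spi1 (-1.08), which encodes PU.1, were lower. Pparg, a lipid-sensing receptor, was at 9.32, 9.27, 9.14 and 9.46 on the MF arrays and 7.85, 6.93 and 6.89 on the BM-DC arrays (log2 difference 2.08, SE 0.17, limma adjusted p = 1.67e-10), and Tcf4 (1.92), Mitf (at least 3.24-fold higher) and Atf3 (1.09) were higher, although other probes of Tcf4 and Mitf, at -0.10 and -0.03, were not called. Immediate early genes also differed, with Fosb at 4.67, 5.19, 4.77 and 5.07 on the MF arrays and 10.77, 9.04 and 8.73 on the BM-DC arrays (log2 difference -4.59, SE 0.50, limma adjusted p = 3.03e-08) and Fos at -0.34 without a call, in a list of 20 with 4 called higher and 8 lower, or 2 higher without background correction. The time between harvest and lysis is not given, and its part in these genes was not tested.

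Genes of monocytes and granulocytes were higher in BM-DC where called, with 1 exception. Of 14 monocyte genes tested, of 20 entries, 8 were called lower in MF and 1 higher, or 4 lower without background correction. F13a1, coagulation factor XIII, was at 5.03, 5.17, 5.10 and 5.07 on the MF arrays and 10.65, 9.60 and 9.99 on the BM-DC arrays (log2 difference -4.98, SE 0.20, limma adjusted p = 1.16e-16). F10, coagulation factor X, was at 6.21, 5.75, 5.73 and 5.75 on the MF arrays and 11.13, 11.53 and 11.47 on the BM-DC arrays (log2 difference -5.52, SE 0.15, limma adjusted p = 3.06e-20). Vcan, the matrix proteoglycan versican, was at 4.32, 4.27, 4.19 and 4.41 on the MF arrays and 8.46, 8.59 and 8.50 on the BM-DC arrays (at least 15.2-fold lower in MF, limma adjusted p = 1.36e-22). Of 23 tested genes of the S100 and granulocyte list 11 were called lower and none higher, with 7 without background correction and 17 when probes detected on all arrays set the scale. S100a8, a subunit of calprotectin, was at 7.17, 7.25, 6.75 and 6.83 on the MF arrays and 11.93, 11.21 and 11.55 on the BM-DC arrays (log2 difference -4.57, SE 0.50, limma adjusted p = 2.72e-08), and its partner S100a9 was at 5.58, 5.03, 5.32 and 5.20 on the MF arrays and 10.04, 9.22 and 9.67 on the BM-DC arrays (log2 difference -4.36, SE 0.54, limma adjusted p = 2.33e-07). Of the granule genes of immature neutrophils, Ltf (at least 3.18-fold lower), Ctsg (-1.55) and Prtn3 (at least 2.39-fold lower) were lower, and Mpo (-0.83) and Elane (-0.53) were not called. The summed linear level of this list was 8191.5 to 10229.0 on the MF arrays and 22001.0 to 25969.0 on the BM-DC arrays. Bright members carry such a sum. The median level of the list was 4.34 to 4.48 on the MF arrays, and 11 members were detected on none of them. Whether the sum reflects granulocytes, and their part in the results above, was not tested.

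Markers of other lineages were called for some genes of each list but the B cell list. Among all genes tested 10.2% were called higher and 7.51% lower. The small counts of these short lists are therefore not read as a difference in the lineages. Of 6 B cell genes tested none was called, of 18 T and NK cell genes 1 was called lower (Cd2, at least 1.76-fold lower), and of 14 stromal and endothelial genes 2 were called lower, Acta2 (-1.80) and Pecam1 (at least 2.22-fold lower), with 2 of 3 other probes of Acta2 and both others of Pecam1 not called. Of 15 erythroid and megakaryocyte genes 4 were called lower, including Nfe2 (-2.62) and Tal1 (-2.53), of 12 progenitor genes 3 were higher and 2 lower, and of 11 mast cell, basophil and eosinophil genes 1 was higher and 4 lower, among them Ear6 (at least 4.91-fold lower), whose near-identical relatives may share its probe, and Hdc (-2.21), whose other probe at -0.67 was not called. Of 9 plasmacytoid dendritic cell genes 2 were called each way, of 6 Langerhans cell genes 1 was lower (Cdh1), and of 9 osteoclast genes 2 were lower, Ctsk and Dcstamp (-2.42), the fusion receptor of osteoclasts. The interferon response list had 6 of 25 called lower and none higher, led by Isg15 (-2.54), with 2 called higher under median scaling, glycolysis 2 of 15 called each way, and the Ms4a family 2 of 7 higher, Ms4a7 (2.14) and Ms4a6b (1.97), and 1 lower, Ms4a8a (-3.07). The 23 tested genes of the dendritic cell list had 6 called lower and 2 higher, Irf8 and Ccnd1, or 12 lower when probes detected on all arrays set the scale. Ccnd1, cyclin D1, is a regulator of the cell cycle and not a marker of dendritic cells. None of 4 sex-linked genes was called, against 1 called higher with the 7 arrays processed or fitted alone or with the replicate block. The probe that stood for Xist was at 1.32, and its other probes were at 1.58, -1.81 and 0.32, of which that at -1.81 was called lower. Without background correction no T and NK cell gene and no stromal gene was called, and the counts were 1 higher for the progenitor and 2 lower for the mast cell list. Under median scaling 2 erythroid genes were lower, and 1 B cell gene was lower when probes detected on all arrays set the scale. Leaving out 1 array moved small counts by over 1.5 times: the mast cell list to 2 higher without MF 4 or BM-DC 2, the plasmacytoid list to 1 higher without MF 1, MF 2, MF 3 or BM-DC 1, the osteoclast list to 1 higher without MF 2 or BM-DC 1, the T and NK cell list to 2 lower without BM-DC 1, the Ms4a family to 2 lower without BM-DC 2 and the purinergic list to 1 higher without MF 1.

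Spread within the groups was uneven across genes. Among genes detected on every array of MF, the widest ranges were those of Rhbdl2, Zmiz1, Erdr1, Bach1 and Msn, from 2.17 to 2.45 log2 units. Rhbdl2, a membrane protease, was at 9.40, 7.02, 8.62 and 9.48 on the MF arrays and 8.30, 8.13 and 8.74 on the BM-DC arrays, with MF 2 the low array. MF 2 was also the lowest for Zmiz1, Erdr1 and Bach1, and MF 1 for Msn, which encodes moesin. Within BM-DC the widest ranges were those of Birc5, Cox6a2, Vasn, Ccl12 and Pclaf, from 2.89 to 3.13. Pclaf, a partner of PCNA, was at 9.24, 9.42, 9.39 and 9.26 on the MF arrays and 8.13, 5.23 and 6.42 on the BM-DC arrays, and Vasn, a membrane protein that binds TGF-beta, was at 4.26, 4.49, 4.39 and 4.38 on the MF arrays and 5.64, 8.59 and 8.03 on the BM-DC arrays, so that BM-DC 1 was the high array for the first and the low array for the second.

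Probes with no single gene symbol were tested beside the genes. Of 4162 that passed the detection filter 190 were called higher (4.57%) and 267 lower (6.42%) in MF. Among all named genes 2245 of the 2266 called had groups that did not overlap, against 48.1% of the genes tested. Of the genes called higher 72 were detected on no BM-DC array, and of those called lower 148 were detected on no MF array.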

How the data were processed

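Illumina mouse bead arrays of 27 samples were analysed, of which 7 enter the comparison. Per the labels' protocols, TRIzol lysates were purified with an RNeasy kit including DNase I, and a TargetAmp kit gave the labelled cRNA. The deposited scanner table gives the mean bead intensity of 45281 probes per array, with no normalization, and a detection p-value in steps of 1 in 936. The deposited series matrix gives intensity on a linear scale, which its values show to be normalized between arrays, and served as an alternative. The scanning software is not given in the sources used here, nor is the genome build of the probes.

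Intensities were background-corrected from the detection p-values (offset 16), quantile normalized and put on the log2 scale with limma 3.58.1 in R 4.3.3. A probe was kept if its detection p was under 0.05 on 3 or more of the 27 arrays (25001 probes), and the probe with the highest mean over the 27 arrays stood for each symbol of the annotation table, giving 12814 genes. Of these genes 5249 had several such probes, and a fold is that of 1 probe. One mean per group was fitted over all 27 arrays (19 residual degrees of freedom), with p-values adjusted over all genes by Benjamini-Hochberg. The code was tested on simulated data. An "at least" fold sets the mean of the brighter group against the lowest detected signal of each array of the other. Precision is limited by how few arrays there are.

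The members and the 43 gene lists (1020 entries, 949 with a named probe, 730 genes tested) were chosen with earlier results of these data known. The genes named were the top 15 in each direction by size among calls without overlap between groups, the 5 with the widest range within each group, and list members. Replicate numbers were checked for pairing through the correlation of same-numbered deviations from the group means, which was -0.049, 0.071 and 0.019, so the numbers were not taken as pairs. Alternatives were another background, scaling, filter, probe and fit, chip as a random block, the replicate number as a block, and each array left out. Promoter windows were those of RefSeq on GRCm38.p6, from 250 bases before to 50 after a start.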

Additional observations from a re-analysis of the deposited data

Results flagged for a closer look

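In 11 of 269 sets of 4 MF values (268 named genes and the number of detected probes), 1 MF array lay apart from the other 3, its gap to the nearest of them being over 0.829 of the whole range. Chance gives this in about 1 in 20 such sets. MF 2 was that array for Tyrobp (11.61 against 11.93 to 11.94, share of the range 0.956), Irf8 (9.05 against 9.50 to 9.54, 0.925), Lipa (13.05 against 13.71 to 13.82, 0.865), Ctsg (5.14 against 4.25 to 4.36, 0.882), Tapbp (7.66 against 6.20 to 6.39, 0.869) and Cd276 (5.80 against 5.07 to 5.19, 0.835). MF 1 was that array for F10 (6.21 against 5.73 to 5.75, 0.952), Blnk (7.69 against 8.40 to 8.50, 0.878) and Psmb8 (6.26 against 7.18 to 7.33, 0.863). MF 3 was that array for Tnf (5.86 against 6.19 to 6.24, 0.873) and Ccl6 (8.37 against 8.07 to 8.12, 0.831). Apart from Tyrobp, which was not called, these genes were called between the groups, and none of the calls was lost when the array in question was left out. The 3 BM-DC arrays are too few for the same test.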

How the results depend on the processing

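The totals of 1304 genes higher and 962 lower in MF moved most with the background and the scaling. Without background correction they were 544 and 488, with the deposited series matrix values 612 and 526, with median scaling 2052 and 709, and with the scale set by probes detected on all arrays 853 and 1508, where the median of all genes was -0.450. Leaving out 1 array at a time gave 1262 to 1353 higher, 949 to 1003 lower and a median of 0.023 to 0.031. With chip as a random block (correlation 0.031) the totals were 1303 and 961, with no detection filter 1303 and 962, and with the 7 arrays processed alone 1364 and 1027. With the replicate number as a block they were 1273 and 938, against 1302 and 960 for the same 7 arrays in the fit without a block, a fit chosen after seeing the data. The replicate numbers did not pair the arrays, and the block moved no total by over 1.5 times. The difference of 7.92 in detected probes per array was -347 at a detection p below 0.01 (exact permutation p = 0.514) and ranged from -95.2 to 214 without 1 array.

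Of 225 named genes that were called, 20 lost the call without 1 array. The genes were Adgre1 (BM-DC 2 or BM-DC 3), H2-Aa (the same), Sirpa, Birc5 and Gusb (BM-DC 2), Atf3, C5ar1 and Cyp51 (BM-DC 3), Axl, Ly86, Npc2, Slc48a1, Srebf2, Tap1 and Tlr7 (BM-DC 1), Ctsa, Entpd1, Il3ra, Slc48a1, Spi1 and Tlr7 (MF 1), C5ar1, Cyp51, Gusb and Tlr7 (MF 2), Hexa and Tlr7 (MF 3), and Axl and Npc2 (MF 4). Among them Ly86 was at 0.93 without BM-DC 1 and Atf3 at 0.72 without BM-DC 3. Without background correction 48 named genes lost the call and with the series matrix values 44, with 11 under median scaling and 16 under the scale set by probes detected on all arrays. The cause was not tested.

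Signs changed for Cd200, which was called, and for genes that were not. Cd200 was at -0.23 with the 7 arrays processed alone and -0.22 with the probe chosen on them, which took another probe. With the scale set by probes detected on all arrays Ccl12 was at -0.14, Ccl3 at -0.12, Ccne1 at -0.16, Cenpf at -0.39, Il10 at -0.02, Mrc1 at -0.31 and Tfeb at -0.40. Csf2ra was at 0.14 under median scaling. Ccl12 was at -0.09 without background correction, -0.08 with the series matrix values and -0.03 with the replicate block, under which Rhbdl2 was at -0.04. Leaving out 1 array gave -0.51 to 0.95 for Ccl12, -0.83 to 0.02 for Ccl2, -0.13 to 0.65 for Ccl3, -0.13 to 0.31 for Mrc1 and -0.04 to 0.78 for Rhbdl2. With chip as a random block all 268 named genes kept their direction and side of the threshold. No chip held both MF and BM-DC arrays, so this fit cannot separate an effect of chip from the comparison. Differences of genes near 4.28 in 1 group are limited by the signal over background.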
